A study of Homo sapiens with 6 samples.

Results

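Interferon-stimulated genes are the antiviral and regulatory genes that cells switch on when an interferon binds its receptor. The set examined here was a fixed list of 31 gene symbols (ISG15, USP18 and HERC5; IFIT1, IFIT2, IFIT3 and IFIT5; OAS1, OAS2, OAS3 and OASL; MX1, MX2 and GBP1; IFI6, IFI27, IFI35, IFI44 and IFI44L; RIGI, listed under its older name DDX58, and IFIH1; STAT2, IRF1, IRF7 and IRF9; RSAD2, BST2, XAF1, SAMD9, PARP9 and TRIM22). Members were found through the probe annotation: 30 of 31 had at least 1 probe, 48 probes in all, and 25 had a probe above background on at least 2 of the 4 arrays that carry their own detection p-values. These 25 measured members stood among 15334 features, genes or unnamed probes, that passed the same filter. STAT2 was not analysed here, and IFI44, IFIT5, OAS3, RSAD2 and USP18 were too dim to test.

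The genes were measured with Illumina HumanHT-12 bead arrays in BCP1, BCBL1 and BC1, human lines of primary effusion lymphoma. This is a B-lineage tumour of body cavities whose cells carry Kaposi sarcoma-associated herpesvirus. Every line was grown in RPMI medium with fetal bovine serum and received either vehicle or 3-AP (triapine, an inhibitor of ribonucleotide reductase, the enzyme that makes deoxyribonucleotides) at 2.5 µM for 48 h. There were 6 arrays, 1 culture for each line and agent, so n = 3 pairs. The p-values of the 3-AP comparison rest on how far the 3 pairs differ from each other. Limma moderates that spread with the spread of all features. Variation between cultures of the same line was not measured. The purpose named by the design is the comparison of each treated culture with the vehicle culture of its own line.

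In the textbook pathway, type I interferons act through the kinases JAK1 and TYK2. A complex that contains STAT2 and IRF9 then binds an interferon-stimulated response element (ISRE) in target promoters, while type II interferon acts through gamma-activated sites (GAS). IRF7 and IRF1 extend the response, and the products of the other members sense viral RNA, degrade it, modify proteins or trap virus particles. Cells can also start the pathway themselves when sensors such as RIGI, IFIH1 or cGAS meet RNA or DNA in the cytoplasm.

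Promoter sequences are shown for PARP9, which passed the 3-AP test, and for 6 members whose windows carry element letters. A RefSeq promoter table (GRCh38.p14, 250 bases before to 50 after the start) held 24 of the 31 members and no entry for USP18, IFIT2, OAS2, OASL, MX2, IRF7 or TRIM22. The ISRE core was searched as TTTCNNTTTC or its reverse complement GAAANNGAAA, the GAS core as TTCNNNGAA, which is its own reverse complement. ISRE letters were present in 15 of the 24 promoters, against 3.65% of 27305 promoters in the table. GAS letters were present in 6 of 24, against 7.88%. Windows of 120 bases from -160 to -41, on the gene's own strand and 5′ to 3′, are printed for these 7 members. They lie at chr1:1013337-1013456 (+) for ISG15, chr1:27672233-27672352 (-) for IFI6, chr10:89392463-89392582 (+) for IFIT1, chr14:94110576-94110695 (+) for IFI27, chr4:88456959-88457078 (+) for HERC5, chr14:24161105-24161224 (+) for IRF9 and chr3:122564825-122564944 (-) for PARP9. All 7 lie upstream of the table's gene start, and the IFI27 window lies inside that gene's annotated span, because the table takes a later start. Capitals mark matches to either core.
ISG15: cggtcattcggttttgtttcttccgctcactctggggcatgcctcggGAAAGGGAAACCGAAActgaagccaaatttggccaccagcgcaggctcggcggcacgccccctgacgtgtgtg
IFI6: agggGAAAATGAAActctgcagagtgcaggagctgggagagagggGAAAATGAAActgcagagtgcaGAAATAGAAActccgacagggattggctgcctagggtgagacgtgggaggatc
IFIT1: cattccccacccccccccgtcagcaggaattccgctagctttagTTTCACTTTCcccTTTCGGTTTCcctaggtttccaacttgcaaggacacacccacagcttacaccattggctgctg
IFI27: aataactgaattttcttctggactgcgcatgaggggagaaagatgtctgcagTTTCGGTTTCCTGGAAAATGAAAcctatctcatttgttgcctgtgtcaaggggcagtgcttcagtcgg
HERC5: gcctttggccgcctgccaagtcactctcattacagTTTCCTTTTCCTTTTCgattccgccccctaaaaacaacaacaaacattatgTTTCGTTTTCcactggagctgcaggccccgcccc
IRF9: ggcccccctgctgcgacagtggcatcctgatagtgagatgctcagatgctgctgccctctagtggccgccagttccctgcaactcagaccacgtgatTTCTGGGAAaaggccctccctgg
PARP9: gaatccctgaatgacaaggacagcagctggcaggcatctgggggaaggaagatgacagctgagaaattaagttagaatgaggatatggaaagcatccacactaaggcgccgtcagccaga
The ISG15 window holds 2 overlapping ISRE matches, the IFI6 and HERC5 windows 3 each (of which a pair overlaps in HERC5), and the IFIT1 window 2 separate ones. In IFI27 a GAS match overlaps 2 ISRE matches. The IRF9 window holds GAS letters and no ISRE letters, and no match to either core was found in the table's promoters of RIGI, RSAD2, XAF1, PARP9 and STAT2. A match describes letters in the window and does not show that a factor was bound.

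On the 4 arrays with detection p-values, 37.0% to 39.2% of 47323 probes were above background. The arrays of BCP1 and BCBL1 resembled each other: log2 values of their vehicle arrays correlated at 0.995 with 0 probes differing at least 4-fold, whereas BC1 correlated with them at 0.962 and 0.960 and differed that much at 264 and 272 probes. The raw table's BCP1 columns repeated the processed BCBL1 values at 100% of probes, so BCP1 had no background estimate of its own. Whether these arrays hold different lines was not tested. If they do not, the 3-AP comparison has 2 pairs and the comparison of responses has no replicate, so the 3-AP calls are also given with BCP1 and BCBL1 averaged. Primary effusion lymphoma cells are known to resemble plasmablasts, and all 6 plasma cell markers examined were above background on the 4 arrays. None of 5 mature B cell markers and none of 7 T and NK cell markers was above background on all 4, and 1 of 7 myeloid and plasmacytoid dendritic cell markers was (LYZ). CD3D, CD3E, NKG7, GNLY, KLRD1, ITGAM, FCGR1A, CLEC4C and IL3RA were above background on none. The summed intensity of the myeloid and plasmacytoid dendritic cell markers was 992.7 to 1027.6 on vehicle arrays and 1038.9 to 1050.1 on 3-AP arrays, and that of the T and NK cell markers 960.0 to 1151.0 and 987.0 to 1087.3. The mature B cell sum was 735.4 to 758.2 and 739.2 to 832.1, highest in treated BCBL1. The plasma cell sum moved with 3-AP in BC1, from 13665.8 to 17683.9, beside 17120.0 and 17411.5 in BCP1 and 15361.1 and 16601.6 in BCBL1. Of these markers, CD38 went from 572.7 to 1346.1 and PRDM1 from 4077.5 to 6726.8 in BC1. Their part in the members' BC1 values was not tested. In RNA from whole cultures, fewer cells with a transcript and less of it per cell cannot be told apart.

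The first comparison asked which members differed between 3-AP and vehicle within lines. Only IFIT2 and PARP9 passed the test, both higher with 3-AP (2 of 25 measured members, limma adjusted p under 0.05). Over all features 7.11% passed, 3.71% higher and 3.4% lower, so the members' share of calls was near the background. The count depended on single lines: it was 0 without BCP1 (0.437% of features), 7 without BCBL1 (3.83%) and 10 without BC1 (23.0%), and 0 with BCP1 and BCBL1 averaged (0.222%). ISG15, IFI6, IRF7, IRF9 and PARP9 passed both without BCBL1 and without BC1. The fitted log2 fold change was nevertheless above 0 in each of the 25, and in 16 it was above 0 in all 3 lines, against 23.8% of features. An unadjusted p under 0.05 was reached by 14 of 25, against 26.1% of features. The median log2 fold change of the measured members was 0.43, beside -0.003 over all features. That median depended on BC1: without this line it was 0.22. IFIT2, OASL and RIGI entered the test through their 3-AP arrays alone, since no vehicle array of BCBL1 or BC1 was above background for them. A higher 3-AP value in those lines was thus built in by the filter, also for the call of IFIT2. With a filter that asked for p under 0.01 on all 4 arrays, 13 members were left and PARP9 was the 1 that passed, against 9.76% of features. The plot of responses by line gives the log2 fold change of every measured member in each line.

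**Figure D1:**
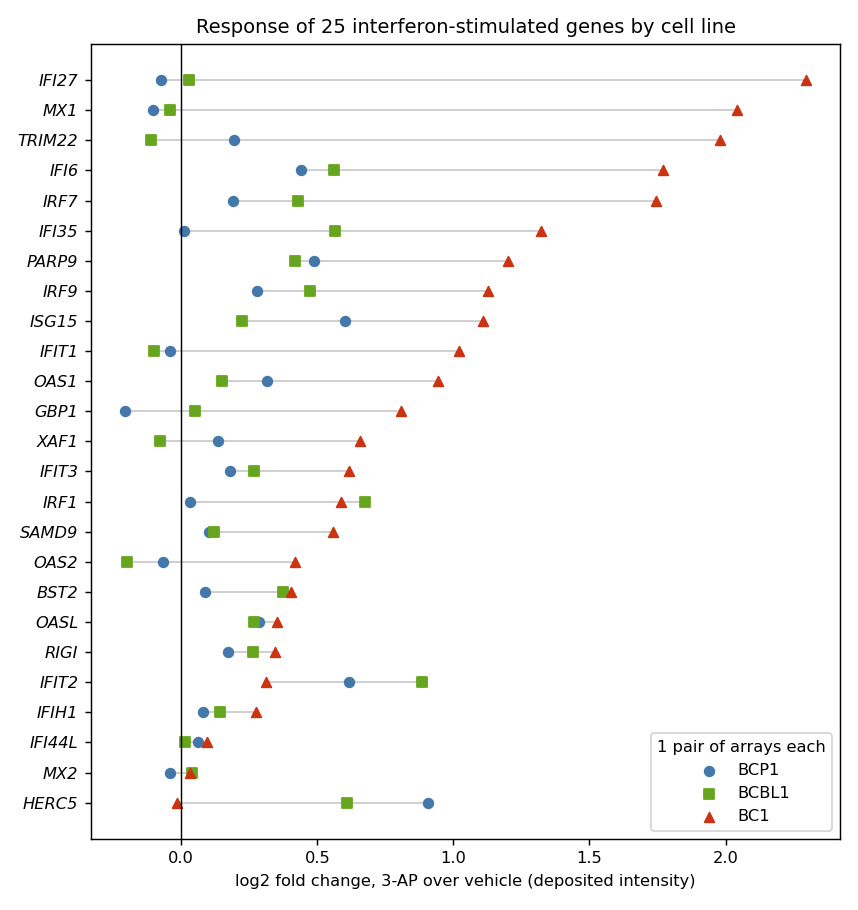
Log2 fold change of 3-AP over vehicle (x axis, deposited intensity) for the 25 measured members (y axis, ordered by the BC1 value), with 1 symbol per line, each from 1 pair of arrays. Triangles (BC1) lie farthest right for 21 members, up to 2.30 for IFI27, while IFIT2 and HERC5 have their larger values in BCP1 and BCBL1.

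IFIT2 encodes a partner of IFIT1 and IFIT3 that binds AU-rich RNA. Its intensity was 139.3, 142.4 and 139.1 on the vehicle arrays of BCP1, BCBL1 and BC1, and 213.4, 263.1 and 172.7 on the 3-AP arrays. All 3 treated values lay above all 3 vehicle values, which were nearly equal. For BCBL1 and BC1 a higher treated value was built in by the filter, which IFIT2 passed through its 3-AP arrays alone. The share of all features whose groups did not overlap is not given, here or for the members below, so the lack of overlap is not read as a result. IFIT2 rose in 3 of 3 lines, with a log2 fold change of 0.60 ± 0.12 (limma moderated SE, as below) and a limma adjusted p of 0.0294. The moderated SE also draws on the variance of all other features, so it does not give the spread of the pairs alone. By line, IFIT2 was 1.53-fold, 1.85-fold and 1.24-fold in BCP1, BCBL1 and BC1. Because the vehicle arrays of BCBL1 and BC1 were not above background, the size is only a bound, at least 1.35-fold over those lines, and 1.52-fold as fitted on deposited values. The call was lost after background subtraction (adjusted p = 0.0812), without BCP1 (0.149), without BCBL1 (0.101), and with BCP1 and BCBL1 averaged (0.177). It held in 6 of 12 alternatives, whose adjusted p ran from 4.84e-13 without BC1 to 0.321 without the replicate block.

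PARP9, an ADP-ribosyltransferase that works with the ubiquitin ligase DTX3L in interferon signalling, showed 160.9, 220.1 and 194.9 with vehicle and 225.4, 294.4 and 448.1 with 3-AP. The groups did not overlap, and the highest value was that of treated BC1. PARP9 rose 1.63-fold (0.70 ± 0.15 as log2, limma adjusted p = 0.0394), and its folds by line were 1.40, 1.34 and 2.30. The call was lost after background subtraction (0.086), without BCP1 (0.122), with both similar lines averaged (0.146) and with the mean of both its kept probes (0.0628). It held in 5 of 13 alternatives, whose adjusted p ran from 4.03e-05 without BC1 to 0.473 without the replicate block.

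**Figure D2:**
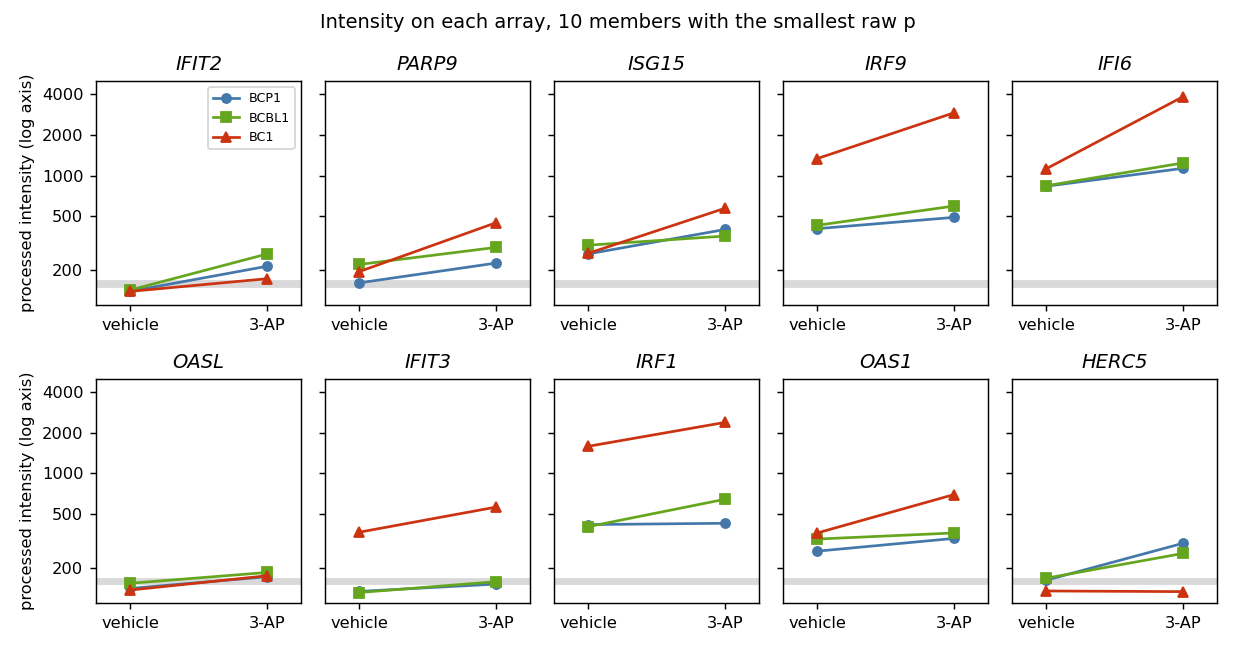
Processed intensity (log axis) on the vehicle and 3-AP array of each line for the 10 members with the smallest unadjusted p; lines join the 2 arrays of a line, and the grey band spans the lowest detected signal of the 4 arrays with detection p-values, 150.5 to 166.2. IFIT2 and OASL rise above the band only with 3-AP, and HERC5 stays under it in BC1.

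Of the ISG15 system, ISG15 is a ubiquitin-like modifier, HERC5 the ligase that attaches it and USP18 the protease that removes it and also restrains the receptor. ISG15 intensity was 263.5, 305.6 and 266.1 with vehicle and 399.5, 357.1 and 573.4 with 3-AP. The groups did not overlap, but the difference of 0.64 ± 0.16 (log2, moderated SE) did not pass (limma adjusted p = 0.0516). HERC5 showed 162.1, 167.7 and 134.8 with vehicle and 304.0, 255.7 and 133.3 with 3-AP. Its treated values were higher in BCP1 (1.88-fold) and BCBL1 (1.52-fold), and both BC1 arrays were below background. The mean difference of 0.50 ± 0.16 did not pass (limma adjusted p = 0.106). USP18 was not tested, being above background on 1 of 4 arrays, that of treated BC1, at 211.1 against 134.7 with vehicle.

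Among the IFIT genes, whose products bind foreign RNA, IFIT3 showed 133.8, 131.3 and 366.6 with vehicle and 151.6, 157.9 and 562.2 with 3-AP. It was above background in BC1 and not in BCBL1, and its 0.35 ± 0.11 did not pass (limma adjusted p = 0.0877). IFIT1 intensity was 153.7 with vehicle and 311.4 with 3-AP in BC1. In the other lines it lay between 144.1 and 154.6, not above background in BCBL1. The other IFIT1 probe was above background on no array with detection p-values, and stood at 147 and 144.3 in BC1. The IFIT5 probe was above background on 1 array, treated BC1, at 154.7.

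OAS enzymes make the oligoadenylates that activate RNase L, and OASL is a relative without that activity that assists RIGI. OAS1 showed 265.5, 326.3 and 362.1 with vehicle and 329.9, 361.9 and 696.5 with 3-AP. Its groups overlapped, and 0.47 ± 0.15 did not pass (limma adjusted p = 0.101). OASL showed 140.7, 153.6 and 136.9 with vehicle and 171.7, 184.7 and 174.6 with 3-AP. Every treated value exceeded every vehicle value, and the vehicle values of BCBL1 and BC1 were not above background. OASL was kept through its 3-AP arrays alone, so in these lines a higher treated value was built in by the filter. The difference of 0.30 ± 0.08 did not pass (limma adjusted p = 0.0689), and as a bound it was at least 1.14-fold over BCBL1 and BC1. OAS2 had its probe values at 3455.1, 4052.7 and 4738.1 with vehicle and 3295.9, 3530.4 and 6331.3 with 3-AP, higher in BC1 and lower in the other lines. Its fitted 0.05 ± 0.13 turned to -0.14 when its 4 kept probes were averaged. Both OAS3 probes were below background on at least 3 of the 4 arrays.

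The transcription factors showed their values in the same order of lines. IRF9, the DNA-binding partner of the STATs, was at 405.0, 429.1 and 1335.9 with vehicle and 491.0, 595.5 and 2915.5 with 3-AP. The vehicle value of BC1 exceeded both treated values of the other lines, and the difference of 0.63 ± 0.16 did not pass (limma adjusted p = 0.0557). IRF1 was at 417.3, 402.9 and 1582.8 with vehicle and 426.9, 642.6 and 2378.5 with 3-AP. Treated BCP1 barely differed from its vehicle array, and 0.43 ± 0.13 did not pass (limma adjusted p = 0.0914). IRF7, which drives interferon genes, was at 248.0 with vehicle and 830.6 with 3-AP in BC1, a 3.35-fold difference. It was 1.14-fold in BCP1 and at least 1.27-fold in BCBL1, where the vehicle array was not above background. The other kept IRF7 probe had log2 fold changes of 0.95 in BC1 and -0.14 in BCP1, beside 1.74 and 0.19 for the probe used.

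IFI6, a small hydrophobic protein of mitochondria and endoplasmic reticulum with antiapoptotic activity, gave the largest fitted difference of the measured members. It was at 834.1, 841.1 and 1124.8 with vehicle and 1131.7, 1240.7 and 3838.1 with 3-AP. The treated values lay above the vehicle values, narrowly so in BCP1 against vehicle BC1. The difference of 0.92 ± 0.24 did not pass (limma adjusted p = 0.0589), since the lines ranged from 1.36-fold in BCP1 to 3.41-fold in BC1. The other kept IFI6 probe had a smaller mean log2 fold change of 0.51, and 0.98 in BC1 beside 1.77 for the probe used. IFI27 had 196.9 with vehicle and 967.6 with 3-AP in BC1, 4.91-fold, and was not above background in BCBL1. IFI35 was 1.01-fold, 1.48-fold and 2.50-fold in BCP1, BCBL1 and BC1, whereas IFI44L was 1.01-fold to 1.07-fold in every line. The IFI44 probe was above background on 1 array only, treated BC1, at 170.8.

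For the GTPases, MX1, which blocks influenza virus, was at 500.0 with vehicle and 2057.9 with 3-AP in BC1, 4.12-fold. On the BCP1 and BCBL1 arrays it lay between 117.0 and 132.0, not above background in BCBL1. MX2, its neighbour on chromosome 21, lay between 136.4 and 157.4 on all 6 arrays. GBP1, a guanylate-binding protein that attacks intracellular pathogens, was 0.867-fold, 1.04-fold and 1.75-fold in BCP1, BCBL1 and BC1. None of these 3 passed the 3-AP test, with limma adjusted p of 0.335, 0.958 and 0.494.

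Of the RNA sensors, RIGI was at 146.6, 154.7 and 146.2 with vehicle and 165.1, 185.5 and 185.5 with 3-AP. Its vehicle values were not above background in BCBL1 and BC1, and it was at least 1.17-fold higher over those lines (limma adjusted p = 0.108). IFIH1, the sensor of long double-stranded RNA, was 1.06-fold, 1.10-fold and 1.21-fold. Among other effectors, BST2 (tetherin, which holds virus particles on the cell surface) was 1.06-fold, 1.30-fold and 1.32-fold, and SAMD9, a restriction factor of poxviruses, was 1.07-fold, 1.09-fold and 1.47-fold. XAF1, a proapoptotic factor, reached 1.57-fold in BC1 and lay at 1.10-fold and 0.948-fold in BCP1 and BCBL1. TRIM22, a ubiquitin ligase that represses viral transcription, had 268.3 with vehicle and 1059.2 with 3-AP in BC1, and 123.8 to 141.6 elsewhere. The RSAD2 (viperin) probe lay at 141.6 to 152.7 on all 6 arrays. None of RIGI, IFIH1, BST2, SAMD9, XAF1 and TRIM22 passed the test.

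The second comparison asked whether the response to 3-AP differed in BC1. The median log2 fold change of the measured members was 0.13 in BCP1, 0.22 in BCBL1 and 0.66 in BC1. A value at least 1.5-fold above vehicle was seen for 3 members in BCP1, 3 in BCBL1 and 15 in BC1, against 1.75%, 1.77% and 4.92% of all features. In BCP1 these were ISG15, HERC5 and IFIT2, and in BCBL1 they were HERC5, IFIT2 and IRF1. No measured member was at least 1.5-fold below vehicle in any line, where 1.2%, 1.24% and 5.09% of features were. BC1 gave the largest of the 3 responses for 21 of 25 members, against 39.7% of features. BCBL1 did so for IFIT2, IRF1 and MX2 (29.2% of features) and BCP1 for HERC5 (31.1%).

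In the test of the BC1 response against the mean of BCP1 and BCBL1, 14 members had a higher response in BC1 and HERC5 a lower one, while 6.48% of features were called higher and 6.86% lower (13.3% in all). Of the 14, 9 were above background on all 4 arrays with detection p-values, and IRF7 on 3. IFI27, MX1, TRIM22 and IFIT1 entered the test through their BC1 arrays alone, so that for these 4 a higher BC1 value was built in by the filter. The difference in log2 response was 2.32 for IFI27, 2.11 for MX1 and 1.94 for TRIM22. It was 1.43 for IRF7, 1.27 for IFI6, 1.09 for IFIT1 and 1.03 for IFI35. In all 6 members with several kept probes, the probes not used had smaller log2 fold changes in BC1. These were 0.95 for IRF7, 0.98 for IFI6, 0.98 for PARP9, 0.83 to 0.85 for OAS1, 0.58 for GBP1 and -0.20 to 0.25 for OAS2. The probes used gave 1.74, 1.77, 1.20, 0.94, 0.81 and 0.42 in the same order. In BCBL1, IFI27, MX1, TRIM22 and IFIT1 were not above background, so their differences rest on undetected signals there. IFI6 was 1.36-fold and 1.48-fold in BCP1 and BCBL1, and IFI35 1.01-fold and 1.48-fold. GBP1, IRF9, PARP9, OAS1, ISG15, XAF1 and OAS2 followed, at 0.88 down to 0.55. HERC5 was at -0.77, and since both its BC1 arrays were below background, the value reflects its higher treated signals in BCP1 and BCBL1. It entered the test through its BCBL1 arrays alone, so for HERC5 a lower BC1 value was built in by the filter. IFIT2 was also lower in BC1, at -0.44, and did not pass (limma adjusted p = 0.0582).

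BC1 has 1 pair, so the spread in this test came only from BCP1 against BCBL1, the similar pair of lines, and limma gave every feature the same standard error, 0.166. After background subtraction none of the members and none of the 15334 features passed, though all 15 called members kept their sign. With p under 0.01 asked on all 4 arrays, 10 of 13 members were called higher and none lower, against 10.1% of features called higher. BC1 also had the broader response over all features, with an SD of log2 fold changes of 0.383 beside 0.273 in BCP1 and 0.270 in BCBL1.

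**Figure D3:**
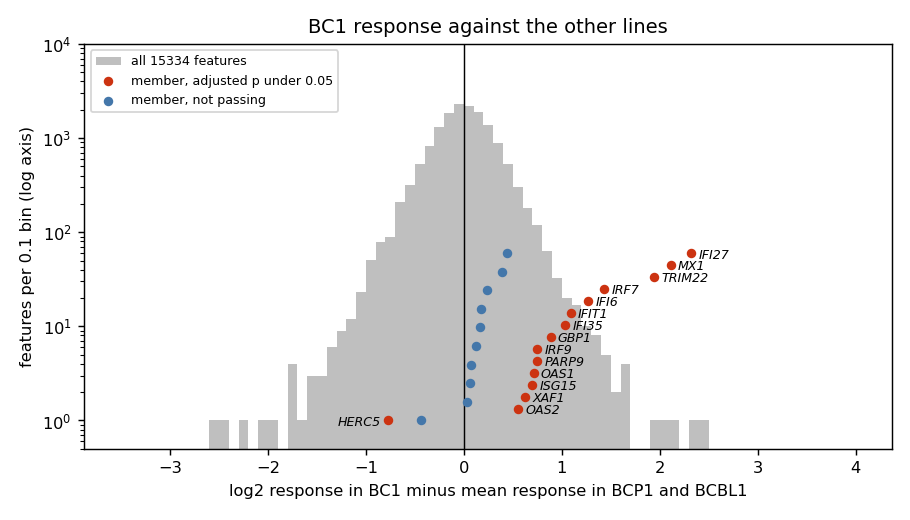
Log2 response in BC1 minus the mean response of BCP1 and BCBL1 (x axis) for all 15334 features (grey bars, log count axis) and for the 25 measured members (points, whose height only spreads them for reading and carries no value). The called members are named. IFI27, MX1 and TRIM22, kept through their BC1 arrays alone, lie near the right end of the distribution. HERC5, kept through its BCBL1 arrays alone, is the named member left of 0.

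The third comparison asked where the members' levels differed between lines, over both agents. The moderated F test of line passed for 14 of 25 measured members, 13 of them higher in BC1 and SAMD9 lower, while 29.6% of features passed (13.5% higher and 16.1% lower in BC1). IRF1 was 4.19-fold and IRF9 4.16-fold higher in BC1 than the mean of the other lines (limma adjusted p = 0.000125 and 0.000299). For MX1, TRIM22 and IFIT3, which were not above background in BCBL1, BC1 was at least 6.14-fold, 3.23-fold and 2.75-fold above BCBL1. These 3 were kept by the filter because of their BC1 arrays, so a difference between lines was built in. IRF7, GBP1, IFI6, IFI35, XAF1, OAS1, OAS2 and IFIH1 were higher by 1.44-fold to 2.46-fold. SAMD9 was 1.79-fold higher in the other lines, and its vehicle intensity was 3394.9 in BCP1, 2903.0 in BCBL1 and 1501.7 in BC1. With p under 0.01 asked on all 4 arrays, 13 members were left and 7 passed, against 29.2% of features.

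Part of the line difference was seen on the vehicle arrays alone. There IRF1 stood at 1582.8 in BC1 against 402.9 and 417.3, IRF9 at 1335.9 against 405.0 and 429.1, MX1 at 500.0 against 125.6 and 132.0, and IFIT3 at 366.6 against 131.3 and 133.8. In contrast, vehicle BC1 lay within the range of the other lines, or below it, for ISG15, PARP9, IFIT1, IFI44L, IFIT2, OASL, RIGI, HERC5 and SAMD9. The level test covers both agents, so a high treated BC1 value raises the level as well as the response. The overlap between members called for level and for response was therefore partly built in and is not read as a result. The lines were not scaled to each other in the deposited table: median intensity was 146.0, 152.2 and 140.9 in BCP1, BCBL1 and BC1.

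**Figure D4:**
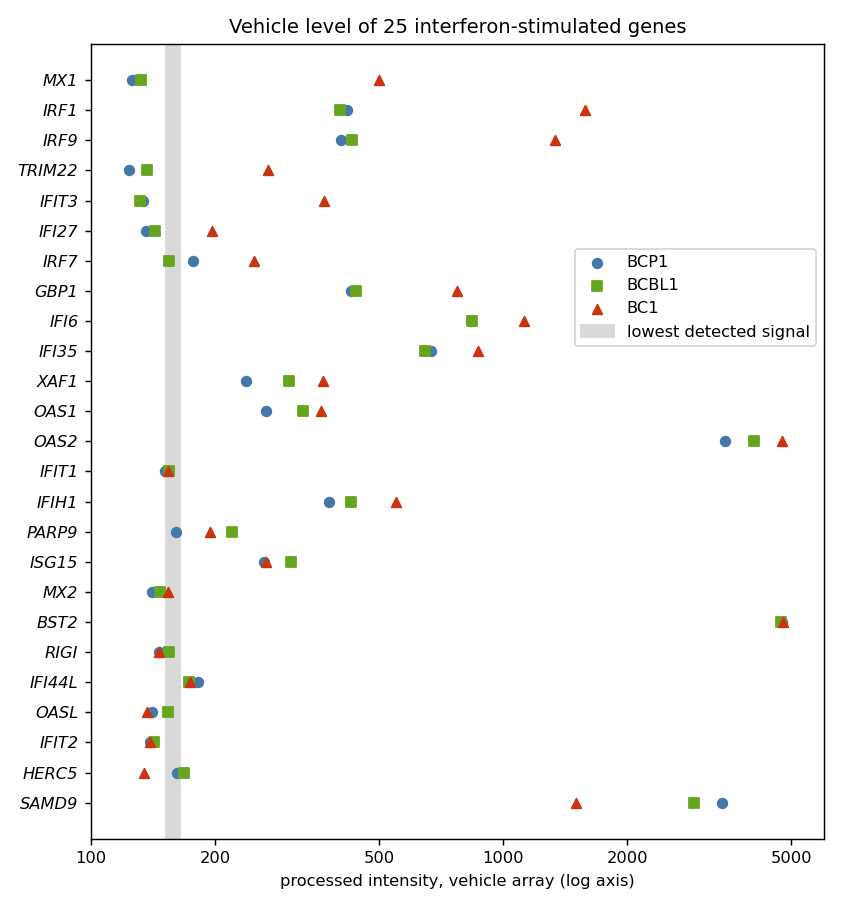
Processed intensity on the vehicle array of each line (x axis, log scale, 1 array per symbol) for the 25 measured members, ordered by the BC1 level over both agents against the other lines; the grey band spans the lowest detected signal on the vehicle arrays of BCBL1 and BC1, 152.4 to 164.0. MX1, IRF1, IRF9, TRIM22 and IFIT3 stand apart in BC1, whereas BST2 coincides in the 3 lines and SAMD9 is lowest in BC1.

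Related genes of the pathway were taken from 4 further lists, whose counts stand beside the same background as the members', 7.11% of features called for 3-AP. Among interferons, receptors and JAK-STAT transducers, 10 of 20 were measured and 1 passed the 3-AP test, higher. TYK2, a receptor kinase, rose by 0.40 ± 0.09 log2 units (limma adjusted p = 0.0434), with 2089.6, 2001.8 and 1628.4 on vehicle arrays and 2535.5, 2591.9 and 2368.8 on 3-AP arrays. The receptor chains IL10RB (0.51 ± 0.15, adjusted p = 0.0806) and IFNAR2 (0.37 ± 0.12, 0.105) did not pass. IFNG, which encodes type II interferon, was at 183.2 with vehicle and 470.4 with 3-AP in BC1, at 128.0 and 186.3 in BCBL1 and at 140.7 and 132.3 in BCP1, and did not pass either (0.154). The probe of IFNB1, which encodes interferon beta, was below background. The list's median log2 fold change was 0.21, with 0.57 in BC1.

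None of 16 measured nucleic acid sensors, adaptors and kinases of 18 listed passed, and their median was 0.10. The closest were AIM2, which senses DNA (0.48 ± 0.14, limma adjusted p = 0.0751), STING1, the adaptor of DNA sensing (0.23 ± 0.08, 0.137), and ZBP1, a sensor of left-handed nucleic acid (0.16 ± 0.09, 0.305). CGAS, which signals through STING1, had -0.18 ± 0.10 (0.325). Of these 16, 2 had an unadjusted p under 0.05, against 26.1% of features.

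Of the feedback inhibitors and nucleases, 11 of 14 were measured and 1 passed. DNASE2, the lysosomal nuclease that clears DNA, rose by 0.60 ± 0.09 (limma adjusted p = 0.0141), with vehicle values of 1160.1, 1155.3 and 701.7 and 3-AP values of 1684.1, 1671.9 and 1173.8, higher in 3 of 3 lines. ISG20, an exonuclease (0.59 ± 0.16, adjusted p = 0.0687), RNASEH2A, a subunit of the enzyme that removes ribonucleotides from DNA (0.26 ± 0.08, 0.101), and SOCS1, an inhibitor of JAK kinases (0.36 ± 0.13, 0.144), did not pass. The median of this list was 0.00.

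Of 50 other interferon-stimulated genes 39 were measured, and 4 passed, all higher with 3-AP. GBP2, a relative of GBP1, rose by 1.00 ± 0.17 (limma adjusted p = 0.0199), from 1126.4, 1243.7 and 201.6 to 1753.8, 2158.5 and 595.0. SAMD9L, the neighbour of SAMD9, rose by 0.79 ± 0.18 (0.0452), PARP10, an ADP-ribosyltransferase, by 0.51 ± 0.11 (0.0428), and SHFL, an inhibitor of ribosomal frameshifting in viruses, by 0.50 ± 0.11 (0.0406). The median over the 39 was 0.12, with 0.33 in BC1, and the BC1 response was called higher for 15 and lower for 1, CXCL10, against 6.48% and 6.86% of features. CXCL10 was not above background on either BCBL1 array and entered the test through its BC1 arrays alone, so a difference was built in by the filter. The calls of TYK2, DNASE2, GBP2, SAMD9L, PARP10 and SHFL were all lost after background subtraction, without BCP1, without the replicate block, and with BCP1 and BCBL1 averaged, and that of TYK2 also without BCBL1 (adjusted p = 0.145).

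**Figure D5:**
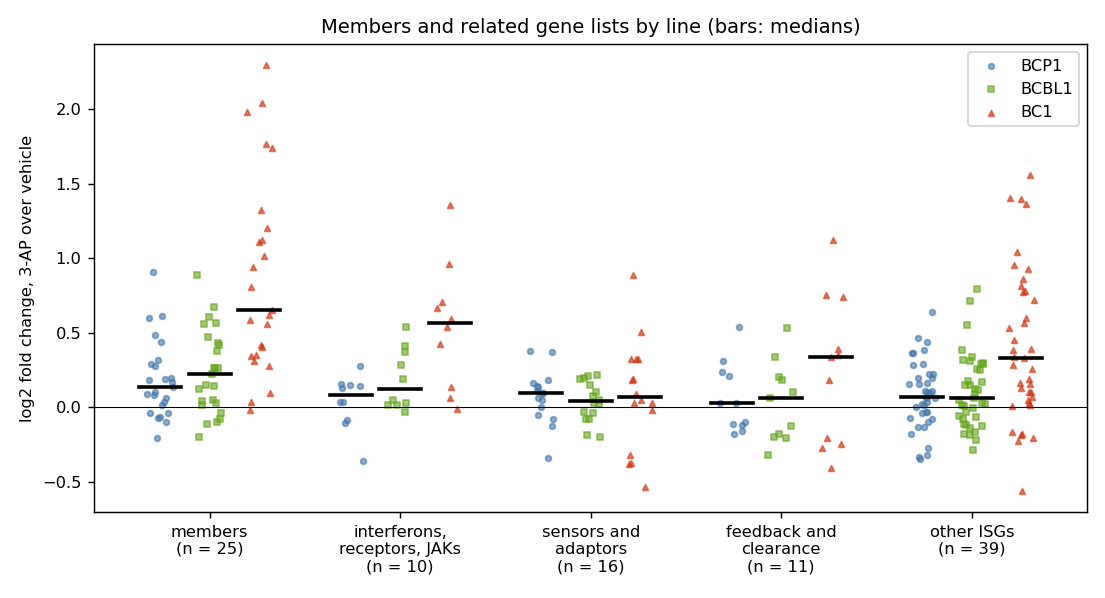
Log2 fold change of 3-AP over vehicle (y axis) in each line for the 25 measured members and 4 related lists (x axis), with 1 point per gene and black bars at the medians. The members' medians are 0.13, 0.22 and 0.66 in BCP1, BCBL1 and BC1, and BC1 also has the highest median in each list except the sensors and adaptors, where it is 0.07.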

How the data were processed

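The authors' deposited processed table gives a linear intensity for 47323 probes on each array. Per the file headers, the non-normalized table adds a detection p-value per probe. How the arrays were scanned, background-corrected and normalized is not given in the sources used here. Sorted values of the 2 arrays of a line were nearly equal, as if quantile normalized within lines. Per the labels' protocols, TriZol was used for RNA and a bead-array kit for cRNA.

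The 13 probes with a 0 on any array were dropped. Others were kept when detected at p under 0.05 on at least 2 of the 4 arrays of BCBL1 and BC1 (18851 probes), and each gene was represented by its brightest kept probe. The annotation named 1 gene for 30113 probes, several for 8, and none for 17202. The filter left 15334 features, 10820 with a symbol. Log2 deposited intensities were fitted with limma 3.58.1 in R 4.3.3 (lmFit and eBayes, cell line as block, 2 residual and 5.41 prior degrees of freedom), with Benjamini-Hochberg adjustment over all features at 0.05. The BC1 response was tested on the 3 within-line log2 differences, and all tests were two-sided. The number of arrays limits the precision.

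The pairing comes from the labels, which give 1 vehicle and 1 treated culture per line. Deviations of same-line arrays from their group means correlated at 0.696 (BCP1), 0.733 (BCBL1) and 0.835 (BC1), and at 0.515 and 0.531 crossed between BCP1 and BCBL1. The fits were tested on simulated data with noise drawn from the 3-AP fit. There the 3-AP test called 36% of log2 changes of 0.5 and 100% of those of 1. The BC1 response test called 0% and 4% of these, and 98% of those of 2. On the real arrays it called members with differences as small as 0.55. The simulation therefore does not show how reliable those calls are. A member not above background on the BCBL1 and BC1 vehicle arrays got a bound against the lowest detected signal.

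The members, lists and settings were chosen with earlier results of these data known. An earlier pass subtracted background with limma nec and a detection profile lent to BCP1. Here that step is an alternative, and it lowered the calls over all features from 1090 to 26. All 31 members are accounted for. Values on every array are given for the members that passed and for the 10 with the smallest unadjusted p. Of each related list, the genes that passed and up to 4 with the smallest unadjusted p are named. IFNB1, CXCL10 and array values of other members were added after their values were seen.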

Additional observations from a re-analysis of the deposited data

Results flagged for a closer look

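The test of the difference in response set apart 24 of the genes named by rule, and also 5 named after their values were seen, EPSTI1, TAP1, GBP4, CXCL10 and IKBKE, which are described under the other observations. Each value is the log2 response to 3-AP in BC1 minus the mean log2 response in BCP1 and BCBL1, with a common standard error of 0.166. Of the members, the difference was IFI27 2.32, MX1 2.11, TRIM22 1.94, IRF7 1.43 and IFI6 1.27 in the upper range, and IFIT1 1.09, IFI35 1.03, GBP1 0.88, IRF9 0.75, PARP9 0.75, OAS1 0.71, ISG15 0.70, XAF1 0.63 and OAS2 0.55 after these. HERC5 had -0.77, with both BC1 arrays below background, and entered the test through its BCBL1 arrays alone. Among the related genes named in the report it was IFNG 1.13, SAMD9L 0.86, GBP2 0.84, ISG20 0.80 and IL10RB 0.68, and AIM2 0.61, SOCS1 0.60, IFNAR2 0.50 and PARP10 0.46. IFI27, MX1, TRIM22 and IFIT1 were not above background on either BCBL1 array and entered the test through BC1 alone. IRF7 and IFNG were not above background on the BCBL1 vehicle array, and SOCS1 was not on the BC1 vehicle array. The values of all these genes rest on undetected signals. In every case BC1 was represented by 1 pair of arrays. Each gene stands by its brightest kept probe. The other kept probes of IFI6, IRF7, PARP9, OAS1, GBP1, OAS2, AIM2, IFNAR2 and IL10RB had smaller log2 fold changes in BC1. With background subtraction none of these genes passed the same test.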

How the results depend on the processing

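Over the alternatives, the 2 calls among members became 0 after background subtraction, with the non-normalized signals of BCBL1 and BC1, and with BCP1 and BCBL1 averaged as 1 replicate. They became 1 with no detection filter, with p under 0.01 on 4 arrays, and with the mean of kept probes. With no replicate block, members called were 0 and features called 12. Leaving out a line gave 0 to 10 members and 67 to 3525 features: 0 and 67 without BCP1, 7 and 588 without BCBL1, 10 and 3525 without BC1. Features called, 1090 as reported, were 26 after background subtraction, 11 with non-normalized signals and 34 with the similar lines averaged. The members' median, 0.43, was 0.80 with non-normalized signals and 0.22 to 0.46 when a line was left out. Members called between lines were 14 of 25 as reported and 7 of the 13 left with p under 0.01 on 4 arrays (29.2% of features). For the BC1 response 15 became 0 after background subtraction.

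With a line left out, fitted log2 fold changes ran from -0.078 (without BC1) to 0.43 for GBP1, from -0.024 to 1.16 for IFI27, from -0.072 to 0.49 for IFIT1, from -0.071 to 1.00 for MX1 and from -0.13 to 0.18 for OAS2, the negative value always without BC1. MX2 ran from -0.0051 (without BCBL1) to 0.036 and was -0.0015 without BC1. OAS2 was -0.14 with the mean of its probes. Of the 3-AP values of named genes by setting, 435 kept direction and side of the threshold, 52 lost and 22 gained the call, and 8 changed sign. For the BC1 response 200 kept both, 26 lost and 4 gained the call. The causes were not tested. With the random replicate block for cell line 2 members and 780 features were called. For 11 members the background-subtracted log2 fold change was over 1.5 times the deposited one. These include members with little change, such as MX2 (0.0098 deposited, 0.040 subtracted) and IFI44L (0.056 and 0.159), and the cause was not tested. BCP1 had no detection p-value of its own.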

Other observations

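Further interferon-stimulated genes outside the naming rule differed in their BC1 response. EPSTI1, TAP1, which pumps peptides into the endoplasmic reticulum for antigen presentation, and GBP4, a relative of GBP1, had log2 fold changes of 1.40, 1.04 and 1.41 in BC1. These exceeded the mean of the other lines by 1.15, 0.82 and 0.95. In the opposite direction, CXCL10, a chemokine induced by interferon, had a log2 fold change of -0.56 in BC1, and the kinase gene IKBKE had -0.54. CXCL10 was kept through its BC1 arrays alone and was not above background in BCBL1, so its difference rests on undetected signals there. None of these 5 passed the test of 3-AP over all lines, and all were named after their values were seen.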
